A study of Mus musculus with 12 samples.

Results

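The genes described here encode splicing factors and heterogeneous nuclear ribonucleoproteins (hnRNPs), followed in liver RNA of A1cf -/- mice (KO) and of wild-type mice (WT). They were taken by gene symbol and not by any measured difference. The rule took the Hnrnp, Srsf, Tra2, Clk, Ptbp, Mbnl, Esrp, Khdrbs, Rbfox, Sf3a and Sf3b, U2af and Snrp names without pseudogene symbols, with a mean of at least 5 counts per library. It matched 76 of 46882 gene names, and 71 of these reached the minimum. All 71 were abundant enough to be tested. The 5 below it were Khdrbs2 with 0 counts in every library, Rbfox1 with a mean of 0.417 counts, Srsf12 with 0.833, Mbnl3 with 1.75 and Esrp1 with 4.5. The least abundant genes inside the minimum were Rbfox3, with a mean of 14.3 counts, and Snrpert, with 31.2.

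Each genotype had 6 libraries, described by the series' design text as biological replicates, and all mice were C57BL/6, 6 to 8 weeks old. KO mice carried no other labelled allele or treatment, and the labels do not say how the A1cf allele was made or in which cells it is lost. A1CF binds RNA, is made in liver and intestine, and helps the deaminase APOBEC1 to edit Apob mRNA. Libraries are named by genotype and by the number in their title, and the genotypes share no number.

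Introns are removed by the spliceosome, a machine built from small nuclear RNAs and their proteins. SR proteins mostly bind exons and favour their inclusion, while hnRNPs bind many exonic and intronic sites and often oppose it, and CDC-like kinases (CLK) phosphorylate SR proteins. Many of these genes control their own transcripts: an extra "poison" exon or a retained intron makes an RNA that is degraded or kept in the nucleus. A1CF belongs to the same broad class of RNA-binding proteins, and its closest relatives include HNRNPR and SYNCRIP.

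Total counts were 22129092 to 51082317 per KO library and 25898171 to 40597491 per WT library. A1cf itself averaged 10.6 ± 1.55 CPM (counts scaled to library size) in KO and 50.9 ± 2.26 CPM in WT (SD, n = 6 each), with every KO library below every WT library. Among 13706 tested genes, 523 (3.82%) passed an adjusted p of 0.05 (edgeR's quasi-likelihood test, Benjamini-Hochberg adjustment over all tested genes), which is the threshold for a change throughout. Hepatocyte markers summed to 77915 to 97929 CPM in KO and 85364 to 107159 CPM in WT. Of these 7 markers 1 had a positive log2 fold change of KO over WT, with a median of −0.10, and 0 passed the threshold. Markers of other liver cells were present in both genotypes. Of the 5 tested cholangiocyte markers 1 was positive, with a median of −0.14, and 0 passed. Of the Kupffer cell markers, 8 of 8 had a positive log2 fold change, as did 7 of 7 stellate and 7 of 7 endothelial markers, with medians of 0.69, 0.48 and 0.26, and 0, 3 and 1 of these markers passed the threshold. The 8 acute phase genes described below were also all positive, with a median of 0.58, and the 3 tested neutrophil markers had a median of 1.05, and none of either list passed. Kupffer cell markers summed to 99.5 to 345 CPM in KO and 93.6 to 158 CPM in WT, stellate markers to 201 to 302 CPM in KO and 133 to 242 CPM in WT, and endothelial markers to 131 to 162 CPM in KO and 83.2 to 164 CPM in WT. Fewer cells of a type and less RNA per cell cannot be told apart in bulk tissue, and the part of these markers in the values below was not tested.

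To compare levels between genes, CPM were divided by the exonic length in kilobases. On this scale the families spread widely, as in the plot of levels by family. Srsf5, an SR protein gene, stood highest at 64.7 CPM per kb over all 12 libraries. Hnrnpa2b1, which encodes the abundant hnRNP A2 and B1 isoforms, followed at 53.9, and U2af1, the small subunit of the factor that reads the end of the intron, at 45.0 CPM per kb. Next were Hnrnpk and Sf3b2, each at 37.2 CPM per kb, Hnrnpa1 at 34.5 and Hnrnpc at 29.7. Among the tissue-restricted regulators, Esrp2, an epithelial splicing regulator also known from mature mouse hepatocytes, was the most abundant at 23.7 CPM per kb. Hnrnpr, with 22199 annotated exonic bases against 974 for U2af1, stood at 1.33 CPM per kb. The length takes in every annotated exon, used in liver or not, so these ranks also depend on the annotation. The neuronal regulators were low, with Ptbp2 at 0.972 and Rbfox3 at 0.0842 CPM per kb.

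**Figure D1:**
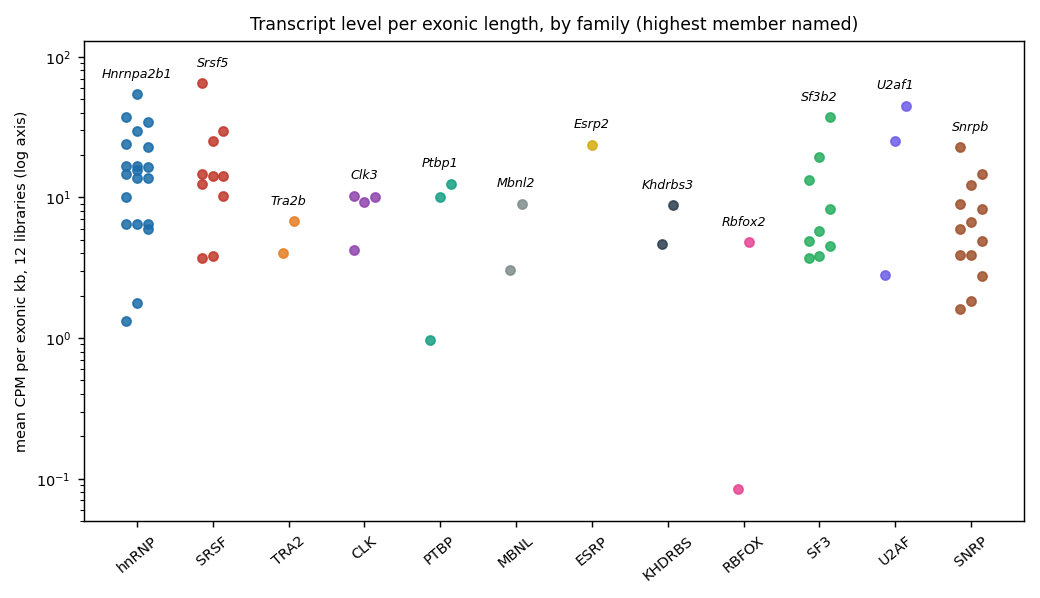
Mean level of each of the 71 genes over the 12 libraries, in CPM per exonic kilobase on a log axis, by family, with the highest member of each family named. Srsf5 (64.7) and Hnrnpa2b1 (53.9) stand at the top and Rbfox3 (0.0842) at the bottom.

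The comparison of KO with WT asked whether these transcripts differ when A1cf is missing. Among the 71 genes, 1 passed the threshold (1.41%, against 3.82% of all tested genes). It was Khdrbs3, which fell in KO, where 2.09% of all tested genes fell. None of the 71 rose, against 1.72% of all tested genes. Before adjustment, 11 genes had p under 0.05 (15.5%, against 21.2% of all tested genes), 7 of them with positive and 4 with negative log2 fold changes. The log2 fold changes of KO over WT were positive for 38 genes and negative for 33, with a median of 0.0083, beside 0.0102 over all tested genes. With library totals as the only scaling, 50 were positive and 21 negative, the called member was Clk4, which was higher in KO, and the calls over all tested genes were 266 higher and 139 lower, against 236 higher and 287 lower here. DESeq2 called 5 of the 71 genes (7.04%, against 8.57% of all tested genes). In 1 gene, Hnrnpa0, the genotypes did not overlap (1.41%, against 3.3% of all tested genes).

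The intervals show how large a difference these libraries leave room for. For 62 of the 71 genes (87.3%) the 95% interval of the log2 fold change lay wholly between −0.5 and 0.5, that is within 1.41-fold in either direction. The same held for 53.1% of all tested genes and for 75.8% of genes above 10 CPM. The members averaged 36.4 CPM at the median, against 11.9 CPM over all tested genes. The biological coefficient of variation, the spread between mice beyond counting noise, was 0.139 at the median of the members and 0.171 at the median of all tested genes.

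**Figure D2:**
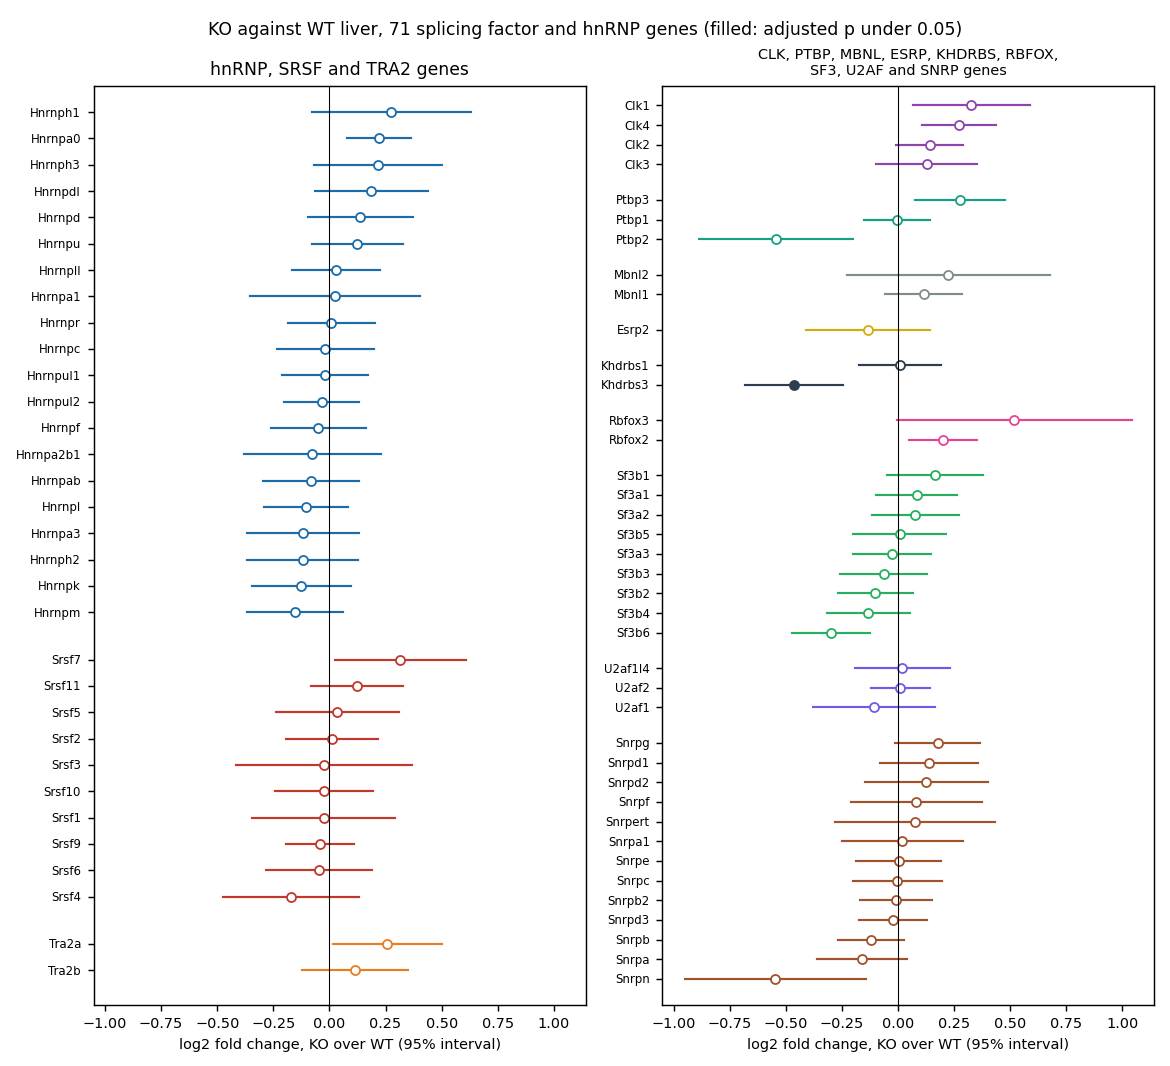
Log2 fold change of KO over WT for each of the 71 genes (points) with its 95% interval (lines), by family; the filled point marks an adjusted p under 0.05. Khdrbs3 is the filled point at −0.47, and most hnRNP, SRSF, SF3, U2AF and SNRP genes lie close to 0.

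Khdrbs3 and Khdrbs1 encode STAR-family RNA-binding proteins, of which Khdrbs1 (Sam68) is broadly expressed and Khdrbs3 (SLM2) is best known from brain, where it regulates splicing of neurexin transcripts. Khdrbs3 (chr15:68928420-69093512, plus strand, mm10) was measured in KO at 12.4 CPM in the lowest library, 14.3 at the median and 15.3 in the highest, and in WT at 14.9, 18.8 and 23.0 CPM. WT 590, the lowest WT library, lay within the KO range, and the other 5 WT libraries lay above every KO library. The means were 14.04 ± 1.12 CPM in KO and 19.4 ± 2.999 CPM in WT (SD, n = 6 each). The log2 fold change was −0.47 with a standard error of 0.10 (95% interval −0.68 to −0.25, adjusted p = 0.0239). The difference of mean log2 CPM was −0.41 among libraries numbered 573 to 602 and −0.42 among those numbered 776 to 780, of which 1 is a KO library. The call was lost without KO 588, KO 591, KO 602, WT 573 or WT 777, with adjusted p between 0.0504 and 0.0612. Khdrbs1 did not pass, with 30.1 ± 3.41 CPM in KO and 29.9 ± 2.57 CPM in WT and a 95% interval of −0.18 to 0.19.

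The polypyrimidine tract binding proteins repress exons. Ptbp1 is the general form, Ptbp2 the neuronal form, whose transcript PTBP1 sends to decay by skipping of an exon, and Ptbp3 a form first described in blood cells. Their estimates differed in sign, and none passed the threshold. DESeq2 called Ptbp2 (−0.55, adjusted p = 0.0224), and it also passed without WT 590 or WT 601 and with the acute phase covariate. Ptbp2 (chr3:119718742-119784466, minus strand) was measured in KO at 5.82, 7.16 and 8.66 CPM (lowest, median and highest library) and in WT at 7.02, 11.2 and 13.6 CPM. The groups overlapped through WT 590 and WT 601, which lay below the highest KO library, and WT 776, WT 777 and WT 778 lay above all other libraries. The log2 fold change of Ptbp2 was −0.54 with a standard error of 0.16 (adjusted p = 0.0748), and the difference of mean log2 CPM was −0.26 within libraries 573 to 602 and −0.55 within 776 to 780. Ptbp3 (chr4:59471868-59549364, minus strand) was measured at 73.4, 77.5 and 99.5 CPM in KO and at 57.3, 70.1 and 74.7 CPM in WT, with a log2 fold change of 0.27 ± 0.09 (SE, adjusted p = 0.116). In Ptbp3, WT 590 alone reached into the KO range. Ptbp1 averaged 59.3 ± 4.61 CPM in KO and 59.5 ± 3.68 CPM in WT, and its 95% interval ran from −0.15 to 0.14.

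The 4 CLK kinase genes all had positive estimates and none passed the threshold, with a median log2 fold change of 0.21. Before adjustment 2 of the 4 had p under 0.05 (50%, against 21.2% of all tested genes), and DESeq2 called 1 of them, Clk4. It was also called with library totals as the only scaling, with the library number range as a covariate, and without WT 590. Clk4 (chr11:51261730-51281766, plus strand) was measured in KO at 52.8, 59.7 and 65.5 CPM and in WT at 43.2, 48.7 and 54.7 CPM, with a log2 fold change of 0.27 ± 0.08 (SE, adjusted p = 0.0665). WT 590 reached into the KO range, and the other 5 WT libraries lay below it. Clk1 (chr1:58410189-58424066, minus strand) was measured in KO at 73.6, 91.8 and 113 CPM and in WT at 55.7, 71.9 and 88.1 CPM, and its log2 fold change was 0.33 ± 0.12 (SE, adjusted p = 0.143). Clk1 was highest in KO 780 and lowest in WT 601, and the ranges overlapped. Clk2 had a log2 fold change of 0.14 (adjusted p = 0.267) and Clk3 of 0.13 (adjusted p = 0.521). Clk3 shares 23.3% of its annotated exonic bases with Edc3 on the opposite strand, and the counting set no strand option.

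**Figure D3:**
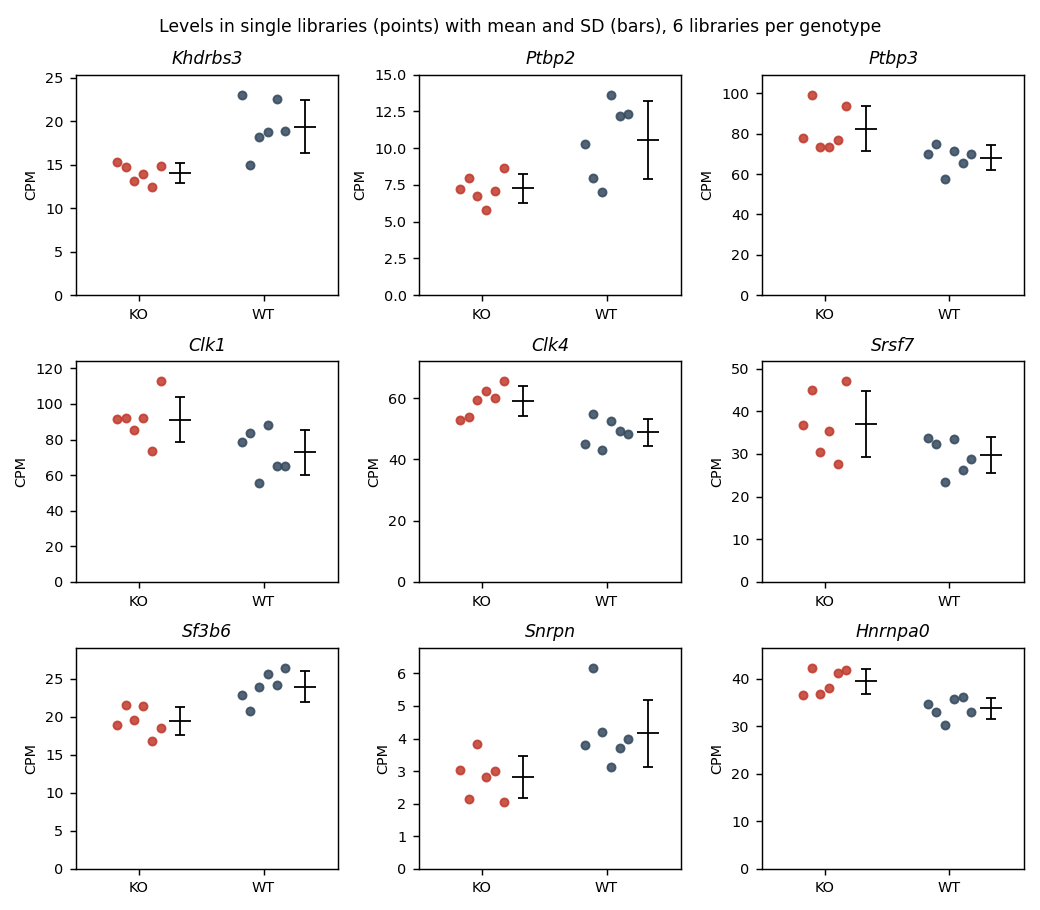
CPM in single libraries (points) with mean and SD (bars) for 9 genes, KO left and WT right, 6 libraries each. In Hnrnpa0 all KO points (36.5 to 42.2) lie above all WT points (30.2 to 36.2), and in the other 8 genes the ranges overlap.

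Among the 12 SR protein genes of the Srsf and Tra2 families the median log2 fold change was −0.01 and none passed the threshold. Before adjustment 2 had p under 0.05, Srsf7 and Tra2a (16.7%, against 21.2% of all tested genes). Neither DESeq2 nor limma-voom called a gene of this group. With the library number range as a covariate Tra2a was called (0.35, adjusted p = 0.0457). Srsf1 and Srsf3, well-studied exon-binding SR proteins, had log2 fold changes of −0.03 (95% interval −0.34 to 0.29) and −0.02 (−0.42 to 0.37). Srsf5, the most abundant per length, averaged 261 ± 42.5 CPM in KO and 255 ± 41.7 CPM in WT. The largest estimates were those of Srsf7 and Tra2a. Srsf7 (chr17:80200089-80207305, minus strand), an SR protein with a zinc knuckle, was measured at 27.6, 36.0 and 47.0 CPM in KO and at 23.5, 30.6 and 33.7 CPM in WT, and its log2 fold change was 0.32 ± 0.14 (SE, adjusted p = 0.197). Tra2a (chr6:49243924-49264033, minus strand), a vertebrate form of the fly sex-determination factor Transformer-2, was measured at 24.5, 29.8 and 40.4 CPM in KO and at 20.7, 26.0 and 28.1 CPM in WT, with a log2 fold change of 0.26 ± 0.11 (SE, adjusted p = 0.207). Both genes were highest in KO 780 and lowest in WT 601, and their ranges overlapped. Srsf11 (0.12) and Tra2b (0.11) had smaller estimates, with intervals that included 0.

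The 20 hnRNP genes had a median log2 fold change of −0.02, with 9 estimates above 0 and 11 below, and none passed the threshold. Before adjustment 1 had p under 0.05 (5%, against 21.2% of all tested genes), Hnrnpa0, which DESeq2 called. Hnrnpa0 was also called with the library number range (0.25, adjusted p = 0.0429) or the acute phase level (0.23, adjusted p = 0.0477) as a covariate. With the acute phase level as a covariate, Hnrnph3 was called too (0.27, adjusted p = 0.0401). Hnrnpa0 (chr13:58125879-58128556, minus strand), a relative of the A and B type hnRNPs, was measured in KO at 36.5, 39.6 and 42.2 CPM and in WT at 30.2, 33.9 and 36.2 CPM. Every KO library lay above every WT library. Its log2 fold change was 0.22 with a standard error of 0.07 and an adjusted p of 0.0804. Hnrnph1, which binds G-rich elements, was measured at 72.9, 93.9 and 133 CPM in KO and at 49.0, 81.4 and 94.1 CPM in WT, with a log2 fold change of 0.28 ± 0.16 (SE, adjusted p = 0.361). Hnrnpr, the relative of A1cf, averaged 29.6 ± 3.53 CPM in KO and 29.5 ± 2.86 CPM in WT, and its 95% interval of −0.19 to 0.20 lay within the 1.41-fold bound. Hnrnpa1 had an estimate of 0.03 with a wide interval (−0.35 to 0.41), Hnrnpa2b1 of −0.08 (−0.38 to 0.23) and Hnrnpk, a poly(C)-binding hnRNP, of −0.13 (−0.35 to 0.10). The lowest estimate was that of Hnrnpm, −0.15 (adjusted p = 0.407). Processed copies of several hnRNP genes exist in the genome, and how the counting divided reads between them is not given in the sources used here.

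SF3A and SF3B form the core of the U2 particle, which recognises the branch point, and U2AF binds next to it. The 12 genes of these groups had a median log2 fold change of −0.01 and none passed the threshold. Before adjustment 1 had p under 0.05 (8.33%, against 21.2% of all tested genes), Sf3b6, which DESeq2 called. It was also called with the acute phase level as a covariate and without KO 584 or WT 590. Sf3b6 (chr12:4817608-4827658, plus strand), a subunit of SF3B, was measured at 16.8, 19.2 and 21.6 CPM in KO and at 20.8, 24.1 and 26.4 CPM in WT. WT 590 lay within the KO range and the other WT libraries above it. The log2 fold change of Sf3b6 was −0.30 ± 0.08 (SE, adjusted p = 0.0538). Sf3b1, the largest subunit, averaged 160 ± 20.8 CPM in KO and 143 ± 15.97 CPM in WT (log2 fold change 0.16, adjusted p = 0.374). Sf3b2 averaged 116 ± 12.6 CPM in KO and 124 ± 4.13 CPM in WT (−0.10, adjusted p = 0.490). U2af1 had a log2 fold change of −0.11 and U2af2 of 0.01, with adjusted p of 0.665 and 0.947. U2af1l4 (0.02) shares 41.7% of its exonic bases with Igflr1 and Gm17104, so its counts are uncertain.

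Snrp genes encode the Sm ring and other proteins of the small nuclear particles. Their 13 estimates had a median of 0.0019 and none passed the threshold. Before adjustment 1 had p under 0.05 (7.69%, against 21.2% of all tested genes), Snrpn, and DESeq2 called none. Snrpn was called with the library number range as a covariate (−0.69, adjusted p = 0.0403) and with the acute phase level, an alternative chosen after seeing the data, as one (−0.61, adjusted p = 0.0355). Snrpn (chr7:59982495-60140219, minus strand), an imprinted gene expressed from the paternal copy that encodes an Sm protein mainly of brain, was measured at 2.06, 2.92 and 3.84 CPM in KO and at 3.13, 3.88 and 6.16 CPM in WT. The ranges overlapped, and WT 590 stood above all other libraries. The log2 fold change of Snrpn was −0.55 ± 0.19 (SE, adjusted p = 0.119), and 27.3% of its exonic bases are shared with Snurf and Gm38393. Snrpb, the closely related general Sm protein gene, averaged 43.1 ± 3.03 CPM in KO and 46.9 ± 3.30 CPM in WT (−0.12, adjusted p = 0.339). Snrpg had an estimate of 0.18 (adjusted p = 0.270), and the other members lay between −0.16 (Snrpa) and 0.14 (Snrpd1). Snrpf shares 85.4% of its exonic bases with other genes, and Snrpert is annotated as a processed pseudogene.

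The remaining tissue regulators did not pass either. Rbfox2 (chr15:77078990-77307053, minus strand), which binds GCAUG elements, was measured at 32.8, 38.7 and 41.3 CPM in KO and at 29.1, 33.5 and 35.0 CPM in WT (log2 fold change 0.20 ± 0.07, SE, adjusted p = 0.130). KO 780 lay within the WT range and the difference of mean log2 CPM was 0.25 within libraries 573 to 602 and −0.01 within 776 to 780. Rbfox3, a neuronal gene, was measured at 0.300, 0.593 and 0.778 CPM in KO and at 0.293, 0.415 and 0.493 CPM in WT. Mbnl1, of the muscleblind family, had an estimate of 0.11 (adjusted p = 0.447), and Mbnl2 of 0.22 with an interval of −0.23 to 0.68. Esrp2 averaged 98.3 ± 19.0 CPM in KO and 108 ± 14.3 CPM in WT (−0.13, adjusted p = 0.587). Over the 14 CLK, PTBP, MBNL, ESRP, KHDRBS and RBFOX genes together the median log2 fold change was 0.13. Before adjustment 6 of the 14 had p under 0.05 (42.9%, against 21.2% of all tested genes).

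WT 590 recurred among the overlaps. Of the 11 genes with p under 0.05 before adjustment, it lay within the KO range in 9, and no other library lay within the range of the other genotype in more than 5. Over all 2903 tested genes with p under 0.05 before adjustment, WT 590 lay within the KO range in 44.4%, and the other libraries lay within the range of the other genotype in 20.8% to 41%. WT 590 was also the WT library with the highest acute phase transcripts (mean log2 CPM 10.88, given below). WT 601, the next WT library at 10.13, lay within the KO range in 1 of the 11 genes. KO 602, the highest library at 11.97, lay within the WT range in 4. The part of the acute phase level in these values was not tested.

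A further list of 85 splicing genes outside these families (helicases, PRPF and LSM proteins, other RNA-binding regulators) held 2 genes past the threshold (2.35%, against 3.82% of all tested genes), with a median log2 fold change of 0.03. Pcbp1, a poly(C)-binding protein related to hnRNP K, fell in KO, to 81.2 ± 9.13 CPM against 107 ± 9.50 CPM in WT (log2 fold change −0.40, adjusted p = 0.0221). Rbm47, a relative of A1cf that also takes part in APOBEC1 editing, rose in KO, with 69.6 ± 6.62 CPM against 56.1 ± 4.07 CPM in WT (0.31, adjusted p = 0.0390). The call of Rbm47 was lost in 9 of the 12 fits that left out a library, all but those without KO 574, KO 780 or WT 590, and in 13 of 22 alternatives (adjusted p up to 0.194). That of Pcbp1 was lost without KO 588, KO 591, WT 573, WT 777 or WT 778, and in 8 of 22 alternatives (adjusted p up to 0.145). Syncrip, another relative, did not pass (0.12, adjusted p = 0.645). DESeq2 called 6 of the 85 genes (7.06%, against 8.57% of all tested genes): Pcbp1, Rbm47, Cdc5l, Luc7l3, Rbm5 and Ddx5. Among 14 genes of nonsense-mediated decay and the exon junction complex, which remove poison-exon transcripts, none passed in edgeR's test, and the median log2 fold change was −0.07. Before adjustment 6 of the 14 had p under 0.05 (42.9%, against 21.2% of all tested genes). DESeq2 called 2 of them, Smg8 and Magoh, both lower in KO (14.3%, against 8.57% of all tested genes).

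The hnRNP and SR protein genes varied between libraries of the same genotype, as in the plot of family medians by library. The median log2 deviation of the 20 hnRNP genes from their own means was 0.06 in KO 574, 0.19 in KO 584, −0.17 in KO 588, −0.09 in KO 591, −0.21 in KO 602 and 0.15 in KO 780. It was 0.07 in WT 573, −0.08 in WT 590, −0.24 in WT 601, 0.16 in WT 776, 0.03 in WT 777 and 0.03 in WT 778. Both genotypes held high and low libraries. In KO 584, 19 of 20 hnRNP genes were above their own mean, and in WT 601 none of the 20 was. WT 601 was the lowest library for 12 of 20 hnRNP and 8 of 12 SR protein genes. Hnrnpa1, for example, stood at 87.3 CPM in KO 584 and 77.1 in KO 780, and at 80.8 CPM in WT 776 and 45.3 in WT 601.

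The acute phase genes (Saa1, Saa2, Lcn2, Orm2, Hp, Fgb, Steap4 and Saa3), which the liver raises in inflammation, also differed between libraries of 1 genotype. Their mean log2 CPM was 6.11 in KO 574, 6.34 in KO 584, 9.30 in KO 588, 8.5 in KO 591, 11.97 in KO 602 and 6.00 in KO 780. It was 5.43 in WT 573, 10.88 in WT 590, 10.13 in WT 601, 6.45 in WT 776, 5.49 in WT 777 and 5.47 in WT 778. The 5 libraries with the highest values (KO 588, KO 591, KO 602, WT 590 and WT 601) were also the 5 lowest in the hnRNP median. All 5 carry numbers of the range 573 to 602, which also holds KO 574, KO 584 and WT 573. The Snrp genes did not follow that order, with medians of 0.14 in KO 591 and 0.11 in WT 601 against −0.17 in KO 780. In the rest of the 5 their median was 0.02 in KO 588, −0.04 in KO 602 and −0.07 in WT 590. The median of the SF3 and U2AF genes was 0.07 in WT 601 and 0.02 in KO 591. It was −0.05 in WT 590, −0.08 in KO 588 and −0.14 in KO 602. The part of the acute phase level in the hnRNP values was not tested.

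**Figure D4:**
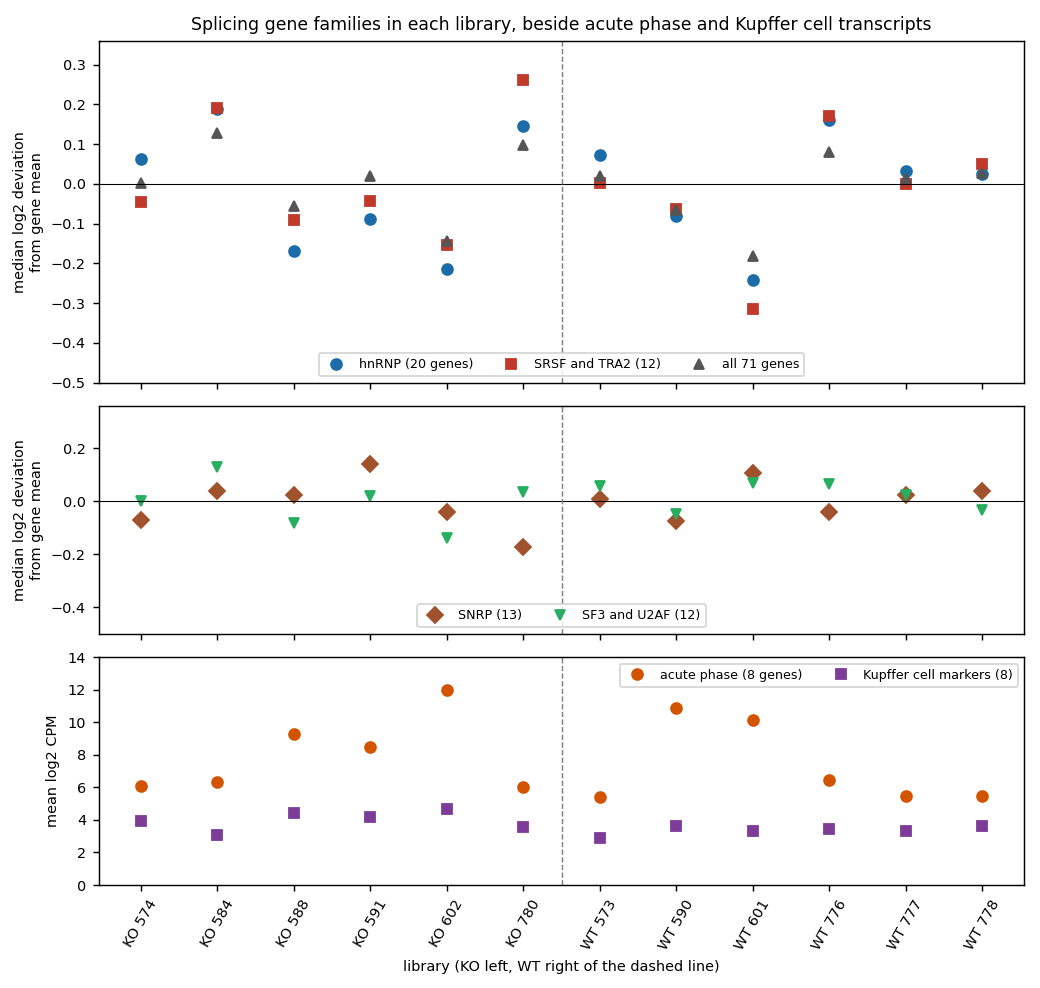
Top and middle, median log2 deviation of each family's genes from their own mean over 12 libraries, per library; bottom, mean log2 CPM of 8 acute phase genes and 8 Kupffer cell markers; KO left and WT right of the dashed line. The hnRNP and SR protein medians are lowest in WT 601 (−0.24 and −0.32), and the 5 libraries highest in acute phase genes are the 5 lowest in the hnRNP median.

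The 4 promoters below belong to the hnRNP and SR protein genes with 1 listed start that varied most across the 12 libraries, and they are shown as the sequence in front of genes of the families that shared high and low libraries. Each runs from 250 bases before to 50 bases after the RefSeq start, 5′ to 3′ on the gene's strand (GRCm38.p6). Capitals mark matches on either strand. The motifs searched were the CCAAT box, the GC box with the letters GGGCGG, the ETS core with CCGGAAG, the TATA box with TATAAA, the cyclic AMP element with TGACGTCA, the E-box with CACGTG, the YY1 core with AAGATGGC, and the palindromic NRF1 core of 10 bases. Srsf3 lies at chr17:29032410-29032709 (plus strand), Hnrnpa1 at chr15:103240147-103240446 (plus), Srsf7 at chr17:80207256-80207555 (minus) and Srsf1 at chr11:88047123-88047422 (plus).
Srsf3: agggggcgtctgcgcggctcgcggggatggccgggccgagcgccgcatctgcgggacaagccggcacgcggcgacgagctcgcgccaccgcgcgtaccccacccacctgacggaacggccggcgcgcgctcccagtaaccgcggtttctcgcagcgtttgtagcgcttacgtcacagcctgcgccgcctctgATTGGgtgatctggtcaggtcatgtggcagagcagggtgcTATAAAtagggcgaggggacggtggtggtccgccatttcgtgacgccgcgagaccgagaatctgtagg
Hnrnpa1: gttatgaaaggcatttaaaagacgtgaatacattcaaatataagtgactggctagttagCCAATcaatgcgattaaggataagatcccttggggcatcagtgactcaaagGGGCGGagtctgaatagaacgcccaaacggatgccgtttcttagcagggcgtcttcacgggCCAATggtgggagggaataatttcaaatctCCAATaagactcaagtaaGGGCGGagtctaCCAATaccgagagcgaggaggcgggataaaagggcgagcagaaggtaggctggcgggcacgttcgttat
Srsf7: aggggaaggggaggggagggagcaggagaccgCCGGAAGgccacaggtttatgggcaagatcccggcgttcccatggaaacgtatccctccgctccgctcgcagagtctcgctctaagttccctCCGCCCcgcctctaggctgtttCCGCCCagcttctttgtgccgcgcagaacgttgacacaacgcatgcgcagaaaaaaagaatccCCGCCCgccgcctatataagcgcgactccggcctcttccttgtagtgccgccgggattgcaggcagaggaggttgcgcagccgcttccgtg
Srsf1: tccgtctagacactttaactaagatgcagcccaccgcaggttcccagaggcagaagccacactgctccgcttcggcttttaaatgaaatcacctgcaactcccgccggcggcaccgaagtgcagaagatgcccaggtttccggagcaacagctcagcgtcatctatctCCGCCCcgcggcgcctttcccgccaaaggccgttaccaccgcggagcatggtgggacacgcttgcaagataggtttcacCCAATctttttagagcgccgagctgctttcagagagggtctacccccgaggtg

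Hnrnpa1 held 4 CCAAT and 2 GC boxes, Srsf7 3 GC boxes and 1 ETS core, Srsf3 1 CCAAT and 1 TATA box, and Srsf1 1 GC box and 1 CCAAT. The 4 windows differed in which motifs they held, and none of these motifs was in all 4. Over the 57 members with a listed start, GC boxes occurred in 70.2% of windows, against 35.9% of all promoters and 46.3% of those of protein-coding genes. ETS cores occurred in 29.8% of members, 9.12% of all and 11.9% of coding promoters, and CCAAT in 50.9%, 37.9% and 39.0%. The members' windows had a median GC content of 60% and 25 CpG, against 52.7% and 7 over all promoters and 56.3% and 13 over those of protein-coding genes. TATA boxes were about as frequent in members (12.3%) as in all promoters (14.2%) and coding ones (13.3%). No member window held the NRF1 core, which is in 0.977% of all promoters and 1.32% of coding ones. The cyclic AMP element occurred in 4 member windows (7.02%, against 1.88% of all promoters and 2.34% of coding ones). The E-box occurred in 8 (14%, against 7.24% and 7.9%) and the YY1 core in 3 (5.26%, against 2.88% and 3.22%). A match describes the letters in these windows.

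Annotated decay and retained-intron transcripts, which the rule did not use, were more frequent among the members than among protein-coding genes. In GENCODE M21, 38 of 71 members (53.5%) have an annotated nonsense-mediated decay transcript, against 4574 of 21922 protein-coding genes (20.9%), and 56 (78.9%) have a retained-intron transcript, against 41.6%. A decay transcript was annotated in 9 of 10 Srsf genes, 4 of 4 Clk and 3 of 3 Ptbp, but in 1 of 9 Sf3 genes. A retained-intron transcript was annotated in 8 of 10 Srsf and 7 of 9 Sf3 genes. Members had a median of 7 annotated transcripts and protein-coding genes 3, and a gene with more transcripts has more chances to hold one of either kind. The counts sum every transcript of a gene, so coding and decaying forms of Srsf7, Clk1 or Ptbp2 were not separated. Of the 71 members, 27 share exonic bases with another annotated gene, and 10 share at least 20% of them.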

How the data were processed

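Liver RNA of 6 KO and 6 WT mice was extracted with a miRNeasy kit and made into TruSeq libraries, per the labels' protocols. The deposited table holds raw fragment counts per gene name. The authors ran featureCounts 1.5.0-p2 over GENCODE exons on trimmed, duplicate-marked, merged alignments, per the file headers, and set no strand option. STAR, DESeq2 and the mm10 build are named in the submitters' processing notes. The exonic length deposited by the authors in that table (another value, in bases) gave CPM per kilobase.

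The counts were tested with edgeR 4.0.16 under R 4.3.3: filterByExpr (minimum count 10), TMM scaling, robust quasi-likelihood test on genotype, and Benjamini-Hochberg adjustment over 13706 tested genes. Standard errors are the log2 fold change divided by the square root of F. Log2 CPM carry a prior count of 2. Alternatives used DESeq2 1.42.0, limma-voom (limma 3.58.1), other scalings, filters and sets of libraries. The acute phase level as a covariate and the counts of libraries within the other genotype's range were added after seeing the data. The steps were tested on simulated counts. Every pair of libraries within a genotype differed beyond counting noise (chi-square over degrees of freedom of at least 16.02).

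Members and gene lists were chosen with earlier results of these data known. Genes were named if they passed the threshold, if their groups did not overlap, if they had the smallest p (2 genes) or the highest level in their family, or if listed for their role. Further members at the ends of a family's range, such as Hnrnpm, or called in an alternative, such as Hnrnph3, were named after their values were seen. Gene symbols of all 71 members matched the gene name table. Promoters came from RefSeq (GRCm38.p6) and transcript types from GENCODE M21.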

Additional observations from a re-analysis of the deposited data

Results flagged for a closer look

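Values of 43 items were examined in each genotype for a library far from the other 5, and 5 of the 86 sets held one; chance gives about 5%. Srsf5 stood at 343 CPM in KO 584, against 219 to 261 CPM in the other KO libraries. Snrpn stood at 6.16 CPM in WT 590, against 3.13 to 4.19 CPM in the other WT libraries. U2af1l4 stood at 8.39 CPM in WT 590, against 10.6 to 11.4 CPM, and Sf3b2 at 132 CPM in WT 777, against 121 to 125 CPM. The median log2 deviation of the CLK, PTBP, MBNL, ESRP, KHDRBS and RBFOX genes was −0.20 in WT 601, against −0.07 to −0.01 in the other WT libraries. A test of whether the KO effect differs between libraries 573 to 602 and 776 to 780 called 0 of the 71 genes and 0 of all tested genes (edgeR's quasi-likelihood test), with 1 KO library in the later range. Before adjustment 0 members and 432 of all tested genes had p under 0.05, and 47 of the 71 members had the same sign in both ranges.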

How the results depend on the processing

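The number of members called was 1, and 5 with DESeq2 (Khdrbs3, Ptbp2, Clk4, Sf3b6 and Hnrnpa0), 5 with the library number range as a covariate, 6 with the acute phase level as a covariate (chosen after seeing the data), 0 in libraries 573 to 602 alone, 0 without the 2 deepest libraries, and 0 to 4 when each library was left out in turn (0 without KO 588, KO 591, KO 602, WT 573 or WT 777, 2 without KO 584 or WT 601, and 4 without WT 590). Over all tested genes, 523 were called, and 1175 with DESeq2, 933 with the acute phase covariate, 57 in libraries 573 to 602 alone, 206 without the 2 deepest, and 266 to 638 with a library left out (315 without KO 574, 319 without KO 588, 324 without KO 591, 312 without WT 573, 266 without WT 777 and 294 without WT 778). Calls over all tested genes also rose without KO 584 (543 of 13792) and without WT 590 (638 of 13829). They fell without WT 601 (416 of 13835). With the library number range as a covariate, 684 of all 13706 tested genes were called. Each covariate thus raised the calls over all tested genes as well as those among the members. Khdrbs3 stayed negative in 22 of 22 alternatives (adjusted p 0.00158 to 0.215) and was called in 14. With library totals alone its adjusted p was 0.0697, and Clk4 was the member called (0.32, adjusted p = 0.0492). Pcbp1 was called in 14 and Rbm47 in 9 of 22. The medians of the families moved by less than the spread between libraries. That of the CLK, PTBP and other tissue regulators ran from 0.09 to 0.18. The median of the SR protein genes ran from −0.05 to 0.12 and changed sign in 15 of 22 alternatives. The Snrp median changed sign in 11, the hnRNP median in 8 and that of the SF3 and U2AF genes in 4. Of 33 members without a call that the naming rule took, 10 changed sign in at least 1 alternative and 6 were called in at least 1. The causes were not tested. No paired analysis was possible because the genotypes share no library number. Depth limits the least abundant members, Rbfox3, Snrpert and Snrpf, most.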
